A study of Mus musculus with 3 samples.

Results

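The genes Zeb1, Zeb2, Snai1, Snai2, Twist1 and Twist2 encode transcription factors of mesenchymal cells, and the peaks of TBX5 around them were described in fetal mouse lung. These 6 genes, of 21631 protein-coding genes on the autosomes and chromosome X, were chosen by name. A peak was given to a gene when its summit lay inside the gene, or when the nearest end of any protein-coding gene was that gene's and lay within 100 kb. By this rule 45 of the 28381 deposited peaks belonged to the 6 genes.

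TBX5, a T-box transcription factor of lung mesenchyme and heart, was mapped with an anti-TBX5 antibody by ChIP-seq, the sequencing of DNA recovered with a protein from cross-linked chromatin, in E14.5 fetal lungs of the CD-1 mouse stock. The series holds 2 ChIP libraries, for which 1 lung was taken per replicate, and 1 input library, with no genetic change or treatment named for any. A single list of peaks stands for all of them, so no spread between lungs could be measured, no test over samples was possible and the depth is unknown. The titles name lung for all 3 libraries, while heart stands in the source field of the second ChIP library and of the input, and the tissues cannot be told apart within the list. Of 10 genes of lung mesenchyme or epithelium, 4 had a strong peak, among them Tbx4 (53.8-fold), Foxf1 (30.7-fold) and Etv5, a gene of distal lung epithelium (15.1-fold). Sox9, also of distal epithelium, had 1 peak of 9.43-fold that was not strong. By the rule used here Nkx2-1, Sftpb and Sftpc, genes of lung epithelium, were given no peak, although a summit given to another gene lay within 1 kb of an end of Sftpc; these 5 epithelial genes were named after their values were seen. Of 15 cardiac genes, 7 (46.7%) had a peak and 5 (33.3%) a strong one. These 5 were Gja5 (33.0-fold), Ryr2 (29.5-fold), Actc1 (17.9-fold), Gata4 (17.7-fold) and Nkx2-5 (15.0-fold). The 8 without a peak included Nppa, Myh6, Tnnt2 and Myl7, names chosen here after their values were seen. A part of heart tissue in the results below was not tested.

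ZEB factors carry clusters of zinc fingers that bind E-boxes, short DNA elements of the form CANNTG, and recruit corepressors such as CtBP. SNAIL proteins, SNAI1 and SNAI2 (also called Slug), bind related E-boxes through their own zinc fingers, and TWIST1 and TWIST2 (also called Dermo1) are basic helix-loop-helix proteins that bind E-boxes as dimers with E proteins. All of them are known for repressing epithelial genes such as that of E-cadherin during epithelial-mesenchymal transition, the conversion of epithelial to migratory cells in development. Twist2 is widely used as a marker of embryonic mesenchyme, that of the lung included.

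TBX5 peaks were found at 5 of the 6 genes, and each of the 5 had at least 1 strong peak, where strong means one of the 5000 peaks with the highest −log10 q. Twist1 alone had none. By the same rule a peak was held by 41.7% of all protein-coding genes, and a strong one by 11.9%. The median number of peaks per gene was 6 for the members and 0 for all genes. Zeb2 had 23 peaks, Snai1 and Twist2 had 8 each, Zeb1 had 4 and Snai2 had 2. At 3 of the 6 genes there were 8 or more peaks, which was so for 2.96% of all genes, a threshold chosen after the counts were seen. At least as many peaks as Zeb2 were held by 28 genes in all, Zeb2 included.

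**Figure D1:**
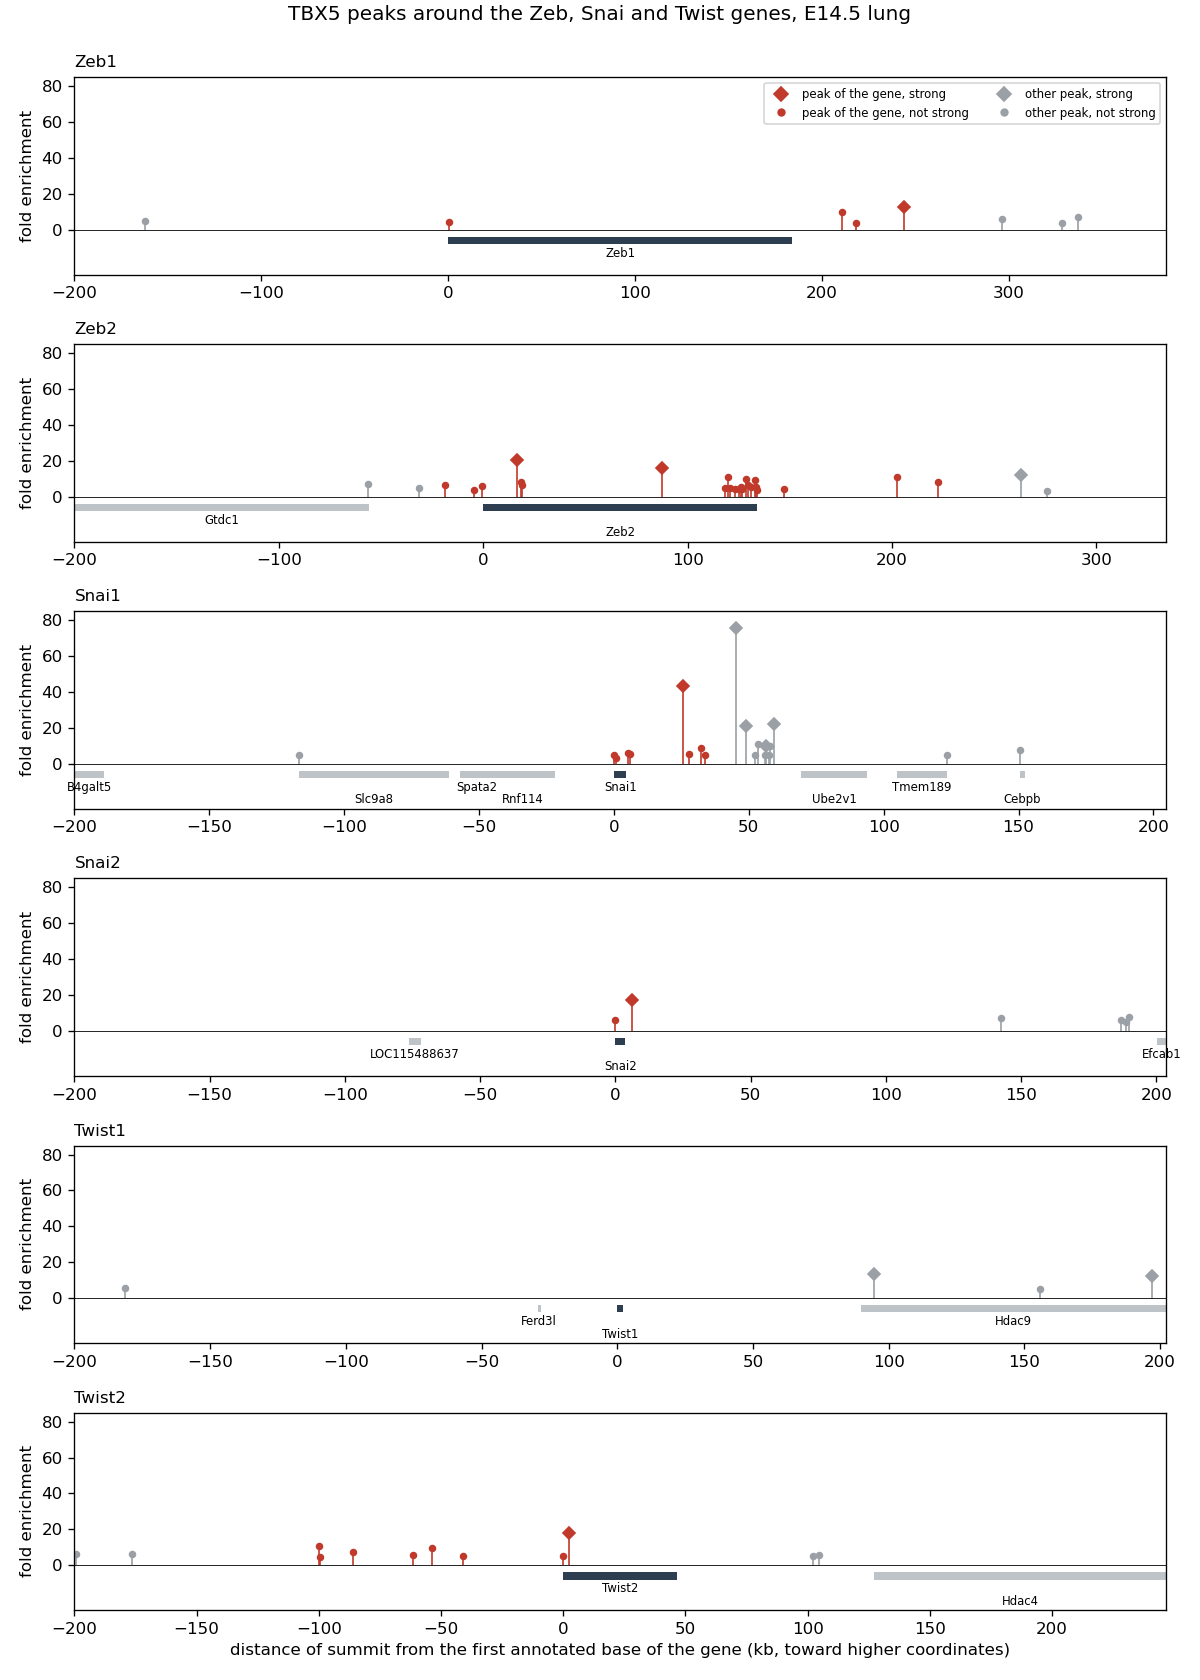
Fold enrichment of each TBX5 peak (vertical axis) against the distance of its summit from the first annotated base of the gene (horizontal axis, kb), 1 panel per gene with 200 kb on either side. Red marks peaks of the gene, grey other peaks, diamonds strong peaks, and bars below the axis protein-coding genes. Zeb2 has a dense group at its right-hand end, Snai1 a 43.1-fold peak beside a grey 75.6-fold one, and Twist1 no peak of its own.

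Genes with a longer stretch in which a peak would be given to them, called territory here, collect more peaks, so the counts were also set against territory. The order then changed. Snai1, with a territory of 48.0 kb, had 16.7 peaks per 100 kb (exact 95% Poisson interval 7.19 to 32.8). Zeb2, with 261.8 kb, had 8.78 (5.57 to 13.2), and these intervals overlapped. Twist2 had 4.28 peaks per 100 kb (1.85 to 8.43) in 186.9 kb, an interval that overlapped those of its neighbours in this order. Snai2 had 1.45 (0.176 to 5.24) in 137.8 kb. Zeb1 had the longest territory, 384.1 kb, and 1.04 peaks per 100 kb (0.284 to 2.67), an interval that ended below those of Zeb2 and Snai1. The interval of Snai2 also ended below that of Zeb2, but overlapped those of Zeb1 and Twist2. A density as high as that of Snai1 was held by 1.03% of all protein-coding genes, and one as high as that of Zeb2 by 3.59%. For Twist2 this share was 10.9%, for Snai2 29.7% and for Zeb1 33.7%, while 41.7% of all genes had any peak. No interval was computed for Twist1, which had 0 peaks in a territory of 60.2 kb, shorter than that of any other member but Snai1. Whether its density differs from those of the other members was therefore not tested. The intervals cover counting error within this list only, and peaks lie in groups, so they are too narrow by an amount not measured.

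The fold enrichment, the authors' ratio of ChIP signal at a summit to its local background, had a median near that of the whole list. Its median over the 45 peaks was 5.87, with quartiles of 5.18 and 9.42, against 6.27, with quartiles of 5.07 and 9.22, over all peaks. Of the 45, 6 (13.3%) were strong, against 17.6% of all peaks, and 11 (24.4%) lay under 5-fold, against 23.8%. The highest fold of the 45 was 43.1, at Snai1, and the next 20.7, at Zeb2. Median width was 362 bp, against 291 bp for all peaks.

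**Figure D2:**
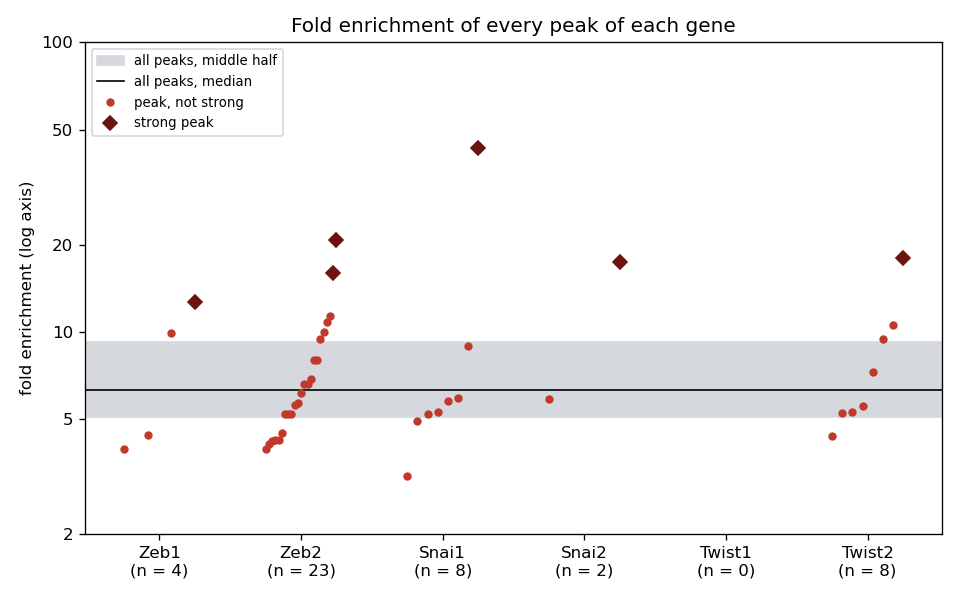
Fold enrichment (log axis) of every peak of each gene, with diamonds for strong peaks; the grey band spans the quartiles of all 28381 peaks, 5.07 to 9.22, and the line marks their median of 6.27. Each gene with peaks has at least 1 above the band, and most of its other peaks lie within or below it.

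TBX5 peaks lay at the very ends of 5 of the 6 genes, but none of these was strong. A summit within 1 kb of either end was found for Zeb1, Zeb2, Snai1, Snai2 and Twist2, against 22.6% of all protein-coding genes. The 9 summits so placed had folds from 3.17 to 6.13 (median 5.25), and 0 of the 9 were strong. The other 36 had a median of 6.72 and a maximum of 43.1, and 6 were strong. The list as a whole differed in the same direction, with a median of 5.49 for peaks within 1 kb of an end and 6.60 for the rest.

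The RefSeq promoter windows used here run from 250 bases before to 50 bases after a start on build GRCm38.p6. They covered 4 of the 6 genes, and strand was taken from them. A peak overlapped at least 1 window of Zeb2, Snai1 and Twist2 and no window of Twist1. Such an overlap was found for 19.1% of the protein-coding genes with a window. At Twist2 the peak (5.25-fold) covered 293 of the 300 bases, with its summit 63 bases before the start. At Snai1 a peak of 5.19-fold covered 171 bases, with its summit 202 bases after the start, outside the window. Zeb2 has 4 RefSeq starts spread over 7.17 kb, and a peak overlapped the window of each, covering all 300 bases of the one shown here. That peak overlapped 2 of the 4 windows, which themselves overlap. In the other Zeb2 windows 296, 144 and 90 bases were covered, and no Zeb2 window held a summit. The 4 windows are printed to set 3 promoter windows overlapped by a TBX5 peak beside that of Twist1, which lay outside any peak. Of the 4, only that of Twist2 held a summit. Each is given 5′ to 3′ on the strand of the gene, and capitals mark the T-box core GGTGT or its reverse complement.
Zeb2, chr2:45113204-45113503, minus strand: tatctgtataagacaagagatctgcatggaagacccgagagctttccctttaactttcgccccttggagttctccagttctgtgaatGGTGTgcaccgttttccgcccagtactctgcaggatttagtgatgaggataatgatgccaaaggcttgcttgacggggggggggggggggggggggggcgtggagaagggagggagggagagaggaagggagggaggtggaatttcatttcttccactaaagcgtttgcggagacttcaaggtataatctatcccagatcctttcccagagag
Snai1, chr2:167537945-167538244, plus strand: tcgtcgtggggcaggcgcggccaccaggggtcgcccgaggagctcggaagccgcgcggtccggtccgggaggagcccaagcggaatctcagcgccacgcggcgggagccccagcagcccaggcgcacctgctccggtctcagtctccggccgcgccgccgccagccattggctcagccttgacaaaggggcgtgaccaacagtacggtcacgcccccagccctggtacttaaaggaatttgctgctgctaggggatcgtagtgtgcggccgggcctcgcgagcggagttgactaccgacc
Twist2, chr1:91801211-91801510, plus strand: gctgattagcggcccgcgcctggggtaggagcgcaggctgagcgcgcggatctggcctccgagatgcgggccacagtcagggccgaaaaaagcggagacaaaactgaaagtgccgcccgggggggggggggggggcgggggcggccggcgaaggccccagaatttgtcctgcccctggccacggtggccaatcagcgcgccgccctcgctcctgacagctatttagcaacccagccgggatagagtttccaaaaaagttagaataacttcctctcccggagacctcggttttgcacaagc
Twist1, chr12:33957421-33957720, plus strand: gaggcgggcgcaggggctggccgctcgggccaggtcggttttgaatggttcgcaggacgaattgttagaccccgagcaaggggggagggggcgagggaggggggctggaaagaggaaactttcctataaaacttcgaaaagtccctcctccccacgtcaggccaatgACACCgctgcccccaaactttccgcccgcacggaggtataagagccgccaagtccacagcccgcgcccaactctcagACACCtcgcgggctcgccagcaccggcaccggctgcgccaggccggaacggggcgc

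The core was found once in this Zeb2 window, 0 times in those of Snai1 and Twist2, and 2 times in that of Twist1, at positions −83 and −6 counted from 0 at the start. It was also in the Zeb2 window beginning at 45110228, but not in the one beginning at 45117393. The Zeb2 window beginning at 45113230 overlaps the printed one and held the same match. Searched on both strands, GGTGT was present in 41.7% of all 32619 promoter windows and in 39.6% of the 4335 that overlapped a peak. The longer half-site GGTGTGA, which contains the core, was in 3.98% of all windows and in none of the 7 windows of these genes. The E-box form CAGGTG, which is a case of CANNTG, was in 20.3% of all windows and 12.96% of those under a peak. Among these genes it was only in the window of Snai1, as its reverse complement at position −126. The general E-box CANNTG was in 72.3% of all windows and 57.9% of those under a peak, and no window of Zeb2, Twist1 or Twist2 held it. The GATA element AGATAA, present in 11.2% of all windows and 4.27% of those under a peak, was in none of the 7. A match or its absence describes these letters in these windows only. No promoter window was used for Zeb1 or Snai2.

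Zeb2, which encodes a zinc finger repressor also known as Smad-interacting protein 1, carried peaks in 3 places inside the gene, most densely at its start. Of its 23 peaks, 17 lay inside the gene (chromosome 2, 44983512 to 45117442 of mm10), 3 below its first base and 3 above its last, where the gene, on the minus strand, begins. The 3 with the highest −log10 q lay away from the start. The first, from 44999960 to 45000649, was 20.7-fold (−log10 q 48.7) and lay inside the gene, 16.7 kb from the end opposite the start. The second, from 45070579 to 45071093, was 16.0-fold (33.5) and lay inside the gene 39.5 kb downstream of the nearest start. Next came a peak of 11.3-fold (19.7) from 45185293 to 45185926, 68.3 kb upstream of the gene, which was not strong. Counted from the end opposite the start, the summits inside the gene lay between 16.7 and 18.9 kb, at 87.2 kb, and between 118.3 and 133.8 kb. Beside the first stood 2 weaker peaks, of 8.01 and 6.60-fold, 18.3 and 18.9 kb from that same end. Of the 3 peaks below the gene, past its downstream end, one of 6.13-fold lay 0.801 kb away and one of 6.60-fold 18.6 kb away. The third had 3.92-fold, the lowest of the gene.

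In the first 15.6 kb of Zeb2 there were 13 summits within 15.5 kb, 56.5% of the gene's peaks. Their folds ran from 4.09 to 10.8 with a median of 5.22, and none was strong. Only 34 of the 28381 peaks (0.12%) had at least 13 summits in the 20 kb above them, counting themselves. Each of the 4 RefSeq starts had a summit within 75 to 180 bp, of 4.09 to 6.85-fold. The 6.85-fold summit was the nearest to both the start at 45113253 and that at 45113279. The highest of the 13 were a peak of 10.8-fold 14.2 kb into the gene, one of 9.99-fold that was 1189 bp wide, and one of 9.42-fold 1.21 kb into the gene. The wide peak and another of 6.85-fold had their summits inside Zeb2os, the antisense RNA gene at the start of Zeb2 (45111138 to 45114087). With summits within 1 kb merged, Zeb2 had 18 peaks.

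Above Zeb2 lies a stretch without protein-coding genes, 3697 kb long and ending at Acvr2a, an activin receptor gene. It held 55 summits, 16 of them strong, of which 3 were given to Zeb2 within the 100 kb limit. For 31 peaks beyond the limit the nearest gene end was that of Zeb2, and 10 of them were strong, up to 38.6-fold at 787.4 kb. The last peak inside the limit lay at 88.5 kb (8.01-fold) and the first beyond it at 129 kb (11.9-fold). With a limit of 1 Mb, Zeb2 had 42 peaks, 8 of them strong.

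Zeb1, the paralogue of Zeb2, had 4 peaks over a longer gene. A weak peak of 4.40-fold lay 428 bp inside the first base of the gene (chromosome 18, 5591327 to 5775468), and there was no other in its 184.1 kb. The remaining 3 lay above the last base. The highest of these, from 5835136 to 5835587, was 12.7-fold (−log10 q 31.2), strong, and 59.8 kb outside. One of 9.89-fold (15.8) lay 26.7 kb outside from 5802030 to 5802298, and one of 3.92-fold 33.9 kb outside. Zeb1 and Zeb2 thus differed in place as well as number, with 1 of 4 peaks inside the gene at Zeb1 and 17 of 23 at Zeb2. With a limit of 50 kb, Zeb1 kept no strong peak.

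Snai1, which encodes the zinc finger repressor SNAIL, had the highest peak of the 6 genes and no other strong one. The gene is 4.62 kb long (chromosome 2, 167538195 to 167542814), with 2 weak peaks inside it, of 5.19 and 3.17-fold, and 2 just above its last base, of 5.90 and 5.30-fold. The highest peak of Snai1 lay 21.1 kb above the last base, downstream of the gene, from 167563431 to 167564300. It had 43.1-fold enrichment and a −log10 q of 163, which placed it 106th of 28381. Next were a peak of 8.92-fold (−log10 q 14.8) from 167569984 to 167570603, 27.6 kb downstream of the last base, and the 5.19-fold peak at the start of the gene (11.6).

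A still higher peak stood in the same interval and was given to the next gene by distance alone. It lay 40.6 kb from Snai1 and 24.2 kb from Ube2v1, a gene of ubiquitin conjugation, from 167583133 to 167584006. At 75.6-fold, with a −log10 q of 312, it was the 13th highest of the list. The whole interval of 64.8 kb between Snai1 and Ube2v1 held 15 summits, 5 of them strong, which is 23.1 per 100 kb. Of these, 6 were nearest to Snai1 (1 strong) and 9 to Ube2v1 (4 strong, among them peaks of 21.1 and 22.4-fold), split at the midpoint 32.4 kb from Snai1. Gm11476, a long non-coding RNA gene (167553312 to 167607850), spanned 13 of the 15. When all annotated genes competed for peaks, Snai1 had 4 peaks and none strong. On its other side Snai1 had no peak before Rnf114, 22.0 kb away, a gene that itself had 0 peaks. Which gene any of these regions acts on was not measured.

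**Figure D3:**
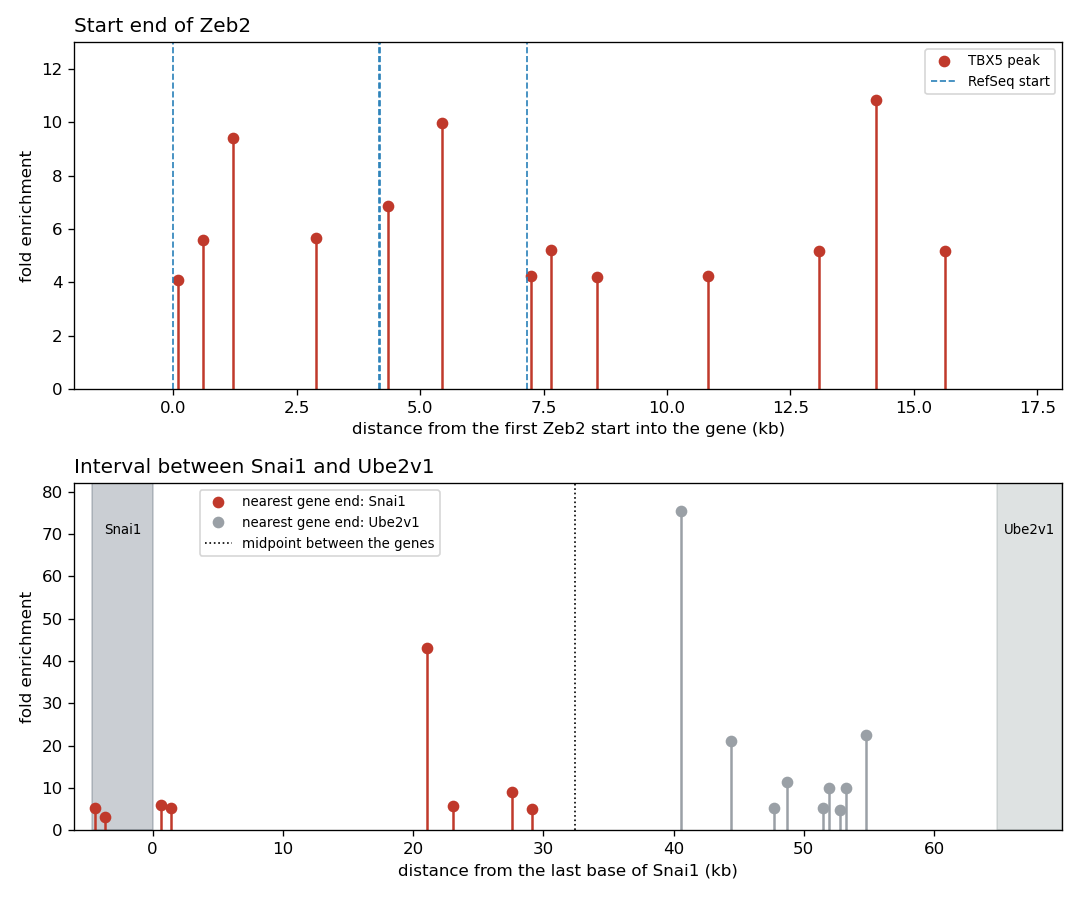
Fold enrichment of TBX5 peaks at the start of Zeb2 (top, distance into the gene in kb, dashed lines at RefSeq starts) and between Snai1 and Ube2v1 (bottom, distance from the last base of Snai1 in kb, shaded genes). The 13 Zeb2 summits run from 4.09 to 10.8-fold without a strong one, and the 2 highest peaks of the lower panel, 43.1 and 75.6-fold, stand on either side of the midpoint.

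Snai2, known for its role in neural crest and mesenchyme, had 2 peaks on either side of a gene of 3.54 kb (chromosome 16, 14705852 to 14709395). The higher was strong, 17.4-fold (−log10 q 37.9), and lay 2.64 kb above the last base from 14711749 to 14712212. The other, 5.87-fold (8.01), had its summit 59 bp below the first base. Both were among the higher-ranked 50% of the list. No other summit lay between Snai2 and the gene below it, whereas 4 more lay toward Efcab1, which encodes a calcium-binding protein, all nearer to that gene.

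Twist2 had 8 peaks, 7 of them below the first base and 1 inside. The gene lies on the plus strand of chromosome 1 (91801461 to 91848034), so the 7 were upstream. Its strong peak, 17.99-fold (−log10 q 41.8), lay 2.24 kb inside the gene from 91803521 to 91804165. The peak on the promoter printed above was 5.25-fold (6.01). The other 6 lay between 41.2 and 99.8 kb upstream, with folds from 4.35 to 10.6. The highest of them, from 91701457 to 91701756 (10.6-fold, −log10 q 18.5), was also the farthest, just inside the 100 kb limit, and one of 9.42-fold (14.6) lay 53.7 kb upstream. With a limit of 50 kb Twist2 had 3 peaks. Downstream, 2 summits lay between Twist2 and Hdac4, both nearer to Hdac4, a class IIa histone deacetylase gene with 5 peaks, none strong.

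Twist1 had no peak in the list, inside the gene (chromosome 12, 33957671 to 33959831), at its promoter or in its territory of 60.2 kb. The gap between the summits on either side was 276.2 kb, against a median of 28.8 kb between neighbouring summits. Gaps as long or longer made up 6.42% of all gaps. The nearest summit lay 92.5 kb above the gene, inside Hdac9 and 4.75 kb from an end of that gene, in a strong peak of 13.2-fold from 34052086 to 34052581. Of all protein-coding genes, 23.7% had no summit as near as this or nearer. On the other side the nearest summit was 181.5 kb away (5.65-fold), beyond Ferd3l, a bHLH gene that had 0 peaks. Sequences inside Hdac9 are known as enhancers of Twist1 in mouse limb, and Hdac9 held 9 peaks, all inside it and 3 of them strong. Its highest by −log10 q was 12.9-fold and lay 595.2 kb from Twist1. With a limit of 1 Mb Twist1 still had 0 peaks, since each of these was nearer to another gene. A peak absent from the list need not be absent from the genome, as the list holds only regions past the authors' threshold.

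Peaks were also counted at 69 protein-coding genes related to the members by family, function or use as markers. Of these, 47 (68.1%) had a peak and 17 (24.6%) a strong one, against 41.7% and 11.9% of all protein-coding genes. Median territory was 83.1 kb for the 69 genes and 48.8 kb for all genes. It was 117.6 kb for the E protein and Id genes, 115.4 kb for the cofactor genes and 112.8 kb for the SNAIL stability genes. For the bHLH genes close to Twist it was 115.1 kb, and for the other SNAIL-type genes 14.7 kb. The part of territory in the shares of these lists was not tested. Of 7 E protein and Id genes, whose products dimerise with TWIST factors or block those dimers, 7 had a peak and 4 a strong one. Tcf12, an E protein gene, had 9 peaks, 5 strong, the highest of 23.1-fold inside the gene. Id2, an inhibitor gene, had 4 peaks, 2 strong, the highest of 19.3-fold lying 2.33 kb outside. Of 11 cofactor genes, 10 had a peak and 3 a strong one, led by Smarca4, a chromatin remodeller (1 peak of 19.02-fold, 0.441 kb from a gene end), and Ctbp1, the corepressor (3 peaks, 13.4-fold). Of 7 genes acting on SNAIL stability, 5 had a peak and 2 a strong one, with 13.4-fold at the ubiquitin ligase gene Fbxo11 and 11.3-fold at the kinase gene Lats2.

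Of 7 bHLH genes close to Twist, 6 had a peak and 2 a strong one, Tcf21, a factor of lung mesenchyme (11 peaks, 3 strong, 20.7-fold), and Msc, which encodes musculin (4 peaks, 3 strong, 18.8-fold). Of the other SNAIL-type genes, Scrt2 had 1 peak of 5.30-fold, and Snai3 and Scrt1 had 0.

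The marker lists differed in their counts, with no test of the difference. Of 15 mesenchymal genes, 14 had a peak and 6 a strong one. Cdh11, a cadherin gene of mesenchymal cells, had 11 peaks, 6 of them strong, and 34.9-fold at the highest, which lay 93.9 kb outside. Tgfbi, a matrix gene, had 15 peaks, 3 strong, the highest of 31.0-fold. Vim, named after its value was seen, had 0. Of 19 epithelial genes, 4 had a peak and 0 a strong one, the highest being 11.5-fold 29.2 kb outside the splicing regulator gene Esrp1 and 6.27-fold outside the transcription factor gene Grhl2. The number of epithelial genes with a peak was 1 at 10-fold or more, 1 when 50% of the list was kept by −log10 q, and 0 inside gene bodies alone or with all annotated genes competing. With the 5000 peaks of highest fold called strong, or the 10000 of highest −log10 q, 1 epithelial gene had a strong peak. The mesenchymal count was 8 inside gene bodies alone, 3 of them with a strong peak, and 7 at 10-fold or more, and 2 had one of the 1000 highest peaks. The E-cadherin gene Cdh1, named after its value was seen, had 0 peaks. Median territory was 92.1 kb for the mesenchymal and 57.3 kb for the epithelial genes, against 48.8 kb for all genes and 162.4 kb for the 6 members, and its part in these shares was not tested.

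**Figure D4:**
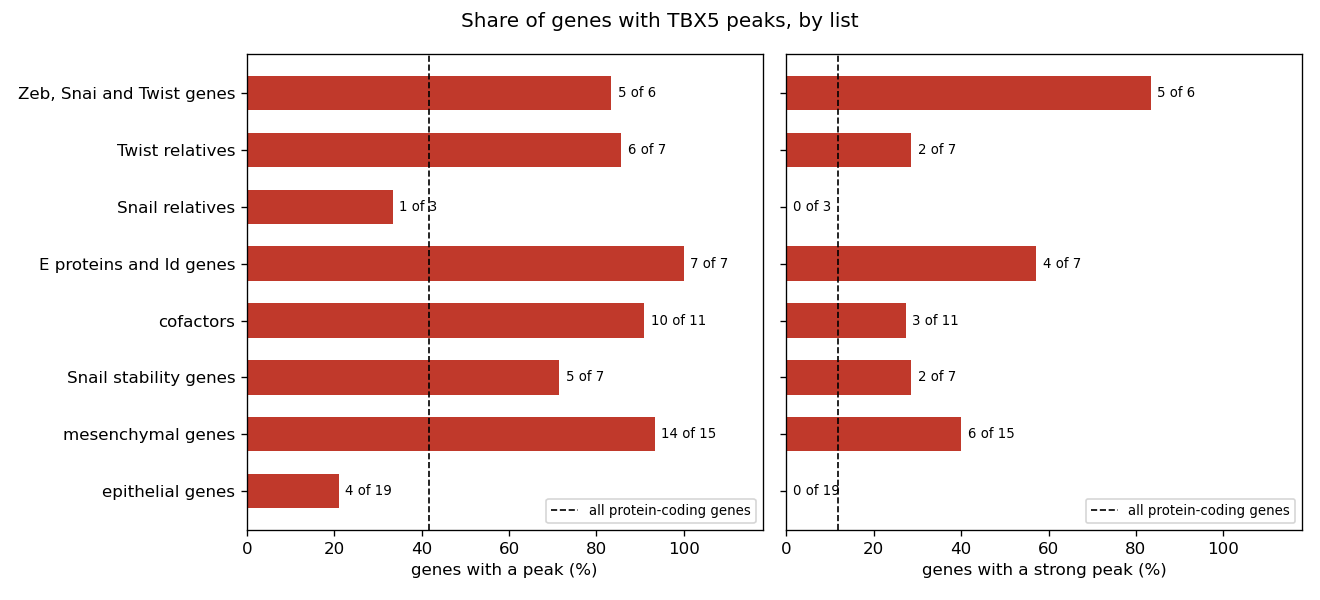
Percent of genes in each list with a TBX5 peak (left) and with a strong peak (right), with counts beside the bars and dashed lines at the shares of all protein-coding genes, 41.7% and 11.9%. The Zeb, Snai and Twist genes reach 5 of 6 in both panels, and the epithelial genes 4 of 19 and 0 of 19.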

How the data were processed

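TBX5 ChIP-seq peaks of E14.5 lung were read from 1 deposited list for 2 ChIP libraries and 1 input library. Per the submitters' processing notes, the tools were Bowtie2, SAMtools and MACS2, and the build was mm10. Their settings, any merging of the ChIP libraries and the role of the input remain not given in the sources used here. For each peak the authors deposited a fold over local background (a ratio), a −log10 q and a score, which was not used. The list's name says that blacklisted regions were removed.

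Genes came from a RefSeq table of GRCm38.p6, the assembly of mm10. Assignment and territory were computed with Python 3.11.15, pandas 2.3.3 and SciPy 1.17.1 and tested on simulated summits. Named were the 6 members, their neighbours, and the 2 genes of each list whose peak had the highest −log10 q, except where a choice made after seeing values is stated. Members and lists were chosen with earlier results of these data known. No genome sequence was used, so peaks away from promoters carry none. Alternatives changed the distance limit, the assignment, the competing genes, the peaks kept, their placing and the cutoff for strong peaks.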

Additional observations from a re-analysis of the deposited data

How the results depend on the processing

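The finding of peaks at 5 of the 6 genes held under 9 of the 10 alternatives for counting peaks, while inside gene bodies alone 4 had one. Twist1 had 0 peaks under each of the 10, but most of these can only keep or remove peaks, so under them its count could not change. Gene bodies alone left 21 peaks of the members in place of 45, 3 strong peaks in place of 6 at 2 genes, and, of the related genes, 20 with a peak and 7 with a strong peak. Keeping 50% of the list, by −log10 q, left 21 member peaks, and peaks at or over 10-fold left 9, with 20 related genes. A limit of 1 Mb gave 12 strong peaks. With all annotated genes competing, 3 members had a strong peak. With the 1000 highest peaks called strong, 1 member, Snai1, had 1 strong peak and 3 related genes had one, and with the 10000 highest the members had 15. Of 323 values recomputed, 238 stayed within 1.5 times the reported count, 85 moved further, and 0 had a direction to reverse. The 238 include counts that were 0 and stayed 0, such as those of Twist1. No library could be left out, as the list holds no value per library. No paired analysis was possible because the counts come from no test and from 1 list. Depth is unknown, so the absence of a peak cannot be weighed against it.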

Other observations

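MicroRNAs of the miR-200 family and miR-205 are known to target Zeb1 and Zeb2, and the nearest peak to each of their genes was described. The nearest summit to Mir141 and Mir200c lay 5.73 and 6.14 kb away, in a peak of 5.85-fold. Mir200a, Mir200b and Mir429 had their nearest summit 54.3 to 56.0 kb away, in a peak of 6.03-fold, and Mir205 at 11.5 kb, in a peak of 5.02-fold. Within 100 kb there were 6 summits for Mir141 and for Mir200c, 4 for Mir205 and 1 for each of the other 3. Genes with the same nearest peak lie close together, so their counts are not separate, and no share over all genes is given beside them.

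Other neighbours of the members had peaks of their own. Efcab1, above Snai2, had 10 peaks, 2 of them strong, with 28.7-fold inside the gene, 231.6 kb from Snai2. Gtdc1, below Zeb2, had 12 peaks, 1 of them strong (14.6-fold, 277.4 kb from Zeb2). Beside Zeb1, Zfp438 had 8 peaks, none strong, and Arhgap12 had 4, 1 of them strong at 10.6-fold. Asb1, below Twist2, had 3 peaks, up to 6.20-fold, and LOC115488637, below Snai2, had 0.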
